A study of Mus musculus with 3 samples.

Results

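The colony-stimulating factors and their receptors comprised 7 of the 22350 protein-coding genes on chromosomes 1 to 19 and X. They were chosen by symbol in the GENCODE M1 annotation of mm9, and all 7 were found: the ligands Csf1, Csf2 and Csf3 and the receptors Csf1r, Csf2ra, Csf2rb and Csf3r. They were followed by ChIP-Seq of RNA polymerase II (Pol_II) carrying phosphate on serine 5 of its C-terminal repeat (Ser5). The study describes this mark as set when transcription starts and kept along the gene until its 3′ end. The cells were bone marrow-derived macrophages of female Fvb mice (Fvb/Hsd in the study's methods) on day 7 of differentiation. Of the 3 libraries, 1 held Ser5 of untreated macrophages, 1 held Ser5 after 2 h with lipopolysaccharide (LPS, a bacterial outer membrane component sensed by TLR4) at 10 ng/ml, and 1 was untreated input, which is chromatin sequenced without antibody. All cells were grown with L929-conditioned medium, a source of CSF-1 protein, and no input from LPS-treated cells was used here. With 1 library per condition no difference had a replicate check and no test was run. Intervals are 95% intervals for counting error only.

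CSF-1 (M-CSF), the product of Csf1, keeps macrophages alive and makes them proliferate through the receptor tyrosine kinase encoded by Csf1r. GM-CSF, the product of Csf2, binds a receptor built of a specific alpha chain (Csf2ra) and a beta chain (Csf2rb) shared with the interleukin-3 and interleukin-5 receptors, while G-CSF, the product of Csf3, acts mainly on neutrophils and their precursors through the receptor encoded by Csf3r. Mice carry an additional beta chain gene, Csf2rb2, a close copy of Csf2rb that serves interleukin-3.

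The untreated Ser5, LPS Ser5 and input libraries held 7616771, 6249819 and 7533308 tags on these chromosomes. The tags were 45, 30 and 36 bases long, whereas the study's methods give the shorter length to the untreated library and the longer to the LPS library. The labels were therefore checked on 8 LPS-response genes, among them Tnf, Il6 and Ccl5, and all 8 held more Ser5 over the gene body in the library labelled LPS, with a median ratio of 38.6. Macrophage genes were occupied in untreated cells (8 genes, 1.15 to 105 TPM per kb, with Lyz2 highest, where TPM scales tags to the total of the library and kb is gene length). After LPS these 8 genes ran from 0.444 to 156 TPM per kb, and the lowest lay under the lowest input value of the list, 0.458. The 4 T cell and 4 fibroblast genes lay at or below 0.265 TPM per kb in both Ser5 libraries, under every input value of the same lists. Of the 12 neutrophil, B cell and erythroid genes, S100a8, Ngp, Cd79a and Klf1 lay above their input in both Ser5 libraries (Klf1 at 2.85 TPM per kb untreated and 1.05 after LPS, S100a8 at 2.18 and 1.99), and Hba-a1 had 0 tags in all 3 libraries. These are bulk libraries, in which fewer cells with Ser5 at a gene and less Ser5 per cell cannot be told apart.

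After LPS, Ser5 over the gene body was at least 2 times higher at all 3 ligand genes, at least 2 times lower at Csf1r, and within 2 times at Csf2ra, Csf2rb and Csf3r. The interval of the Csf2 ratio included equality (0.993 to 14.4), and the Csf3 call was lost under 3 of the alternative settings, so that without the first kb of each gene Csf1 was the 1 ligand gene left. Across the 17386 protein-coding genes whose Ser5 tags summed to 10 or more, 5.83% passed this rule upward and 11.3% downward, and the median ratio was 0.874. Within 1 kb of the annotated start site (TSS) the same 3 ligand genes passed the rule upward and no member passed it downward, against 5.58% and 14.1% of 12535 genes and a median ratio of 0.831. The Csf2 call there rested on 4 untreated and 7 LPS tags, fewer than the 12 of the input. Its ratio was 2.13, with an interval of 0.542 to 9.94 that included equality. Over the gene body the 3 ligand calls were of unequal weight, since Csf1 rested on 554 LPS tags and Csf2 on 11.

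In untreated cells Ser5 over the gene body was at least 2 times above input at 4 of the 7 members, the 4 receptor genes (37.6% of genes). After LPS, Csf1 and Csf3 joined them to make 6 of 7 (32.9% of genes). A deposited Ser5 peak touched the gene body of 5 members in untreated cells and of 6 after LPS, beside 53.3% and 50.6% of all protein-coding genes. These ratios to input scale each library to all its tags. Tags outside the deposited peaks were 49.9% of untreated Ser5, 46.3% of LPS Ser5 and 95.5% of input tags. With scaling to those tags the Ser5-to-input ratio of every gene is higher, and the counts of members over gene bodies become 5 and 7. The share of all genes under that scaling was not computed, so these counts cannot be set beside 37.6% and 32.9%. Within 1 kb of the TSS 5 members were at least 2 times above input in untreated cells and 6 after LPS, beside 71.9% and 70.4% of genes. In both conditions 5 members had a peak within 1 kb of the TSS, beside 48% and 45.9%.

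**Figure D1:**
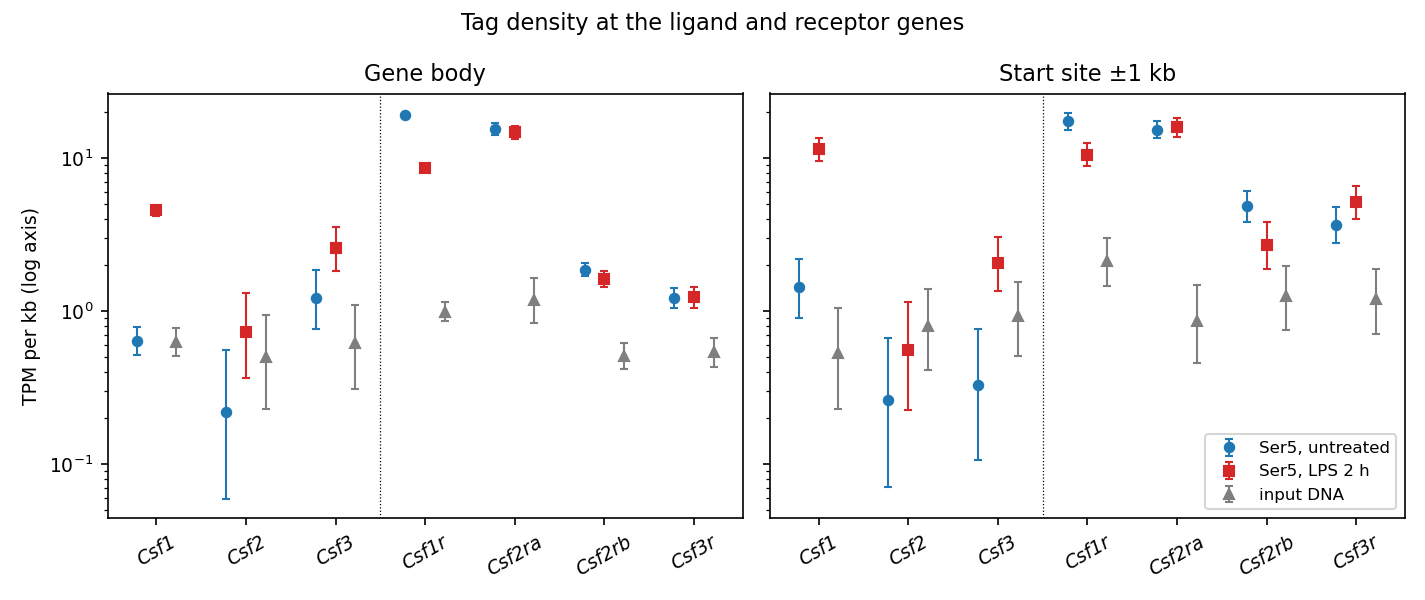
TPM per kb on a log axis at the 7 genes, over the gene body (left) and within 1 kb of the start site (right), with ligands left of the dotted line. Points are single libraries with 95% Poisson intervals. Over the gene body, Csf1 went from 0.642 to 4.56 and Csf1r from 19.2 to 8.61, while Csf2ra stayed near 15.

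Csf1 lies on the minus strand at chr3:107543966-107563387 of mm9. Its gene body held 95 tags in untreated cells, 554 after LPS and 92 in the input, or 0.642, 4.56 and 0.629 TPM per kb. Untreated Ser5 over the whole gene was 1.02 times input (0.759 to 1.38) when scaled to all tags and 1.95 times (1.45 to 2.63) when scaled to tags outside peaks, so whether it exceeded input depends on the scaling. The LPS library was 7.11 times the untreated one (5.71 to 8.93). Among all genes Csf1 moved from rank 9889 to rank 1767 by density, and its ratio was the 84th highest of 17386.

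The increase ran through the whole of Csf1. The TSS window went from 22 to 143 tags with 8 in the input, a ratio of 7.92 (5.03 to 13.0). The rest of the body, from 1 kb after the TSS, went from 80 to 428 tags, 6.52 times as many by TPM (5.12 to 8.39). The first exon, of 445 bp, rose from 13 to 113 tags with 0 in the input, and the last exon, exon 9, from 13 to 83 tags. Beyond the gene end the next 5 kb went from 12 to 42 tags. The density near the TSS was 2.53 times that of the rest of the gene in untreated cells (1.503 to 4.10) and 3.08 times after LPS (2.53 to 3.73), so these intervals overlapped.

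The peak lists showed the same spread. In untreated cells 2 peaks were called at Csf1, both around exon 1, with a higher score of 80.97 (minus 10 times log10 of the MACS p-value), covering 1.62% of the gene. After LPS 13 peaks covered 33.6% of it, in exon 1, introns 1, 4, 7 and 8 and exons 6 to 9. The highest, of 954 bp over exon 1, scored 1214.34. An additional LPS peak of 236 bp lay upstream, at -15342 bp from the TSS, with 8 LPS tags and 0 tags in both the untreated and the input library, which is a description since the peak was picked from the LPS list. The untreated list had no peak at that place.

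The Csf1 promoter and this upstream peak are printed because they are the start site that gained Ser5 and the only deposited peak within 50 kb upstream of it. The promoter runs from 250 bases before to 50 after the RefSeq start (GRCm38.p6 table, placed by exact match on mm9 at chr3:107563338-107563637, minus strand), and the peak was read from mm9 at chr3:107578612-107578847 on the same strand. Capitals mark matches on either strand to TATAAA (the TATA box), TGANTCA (AP-1), GAGGAA (the PU.1 core), TTNNGNAA (C/EBP) and the NF-κB consensus.
Csf1 promoter: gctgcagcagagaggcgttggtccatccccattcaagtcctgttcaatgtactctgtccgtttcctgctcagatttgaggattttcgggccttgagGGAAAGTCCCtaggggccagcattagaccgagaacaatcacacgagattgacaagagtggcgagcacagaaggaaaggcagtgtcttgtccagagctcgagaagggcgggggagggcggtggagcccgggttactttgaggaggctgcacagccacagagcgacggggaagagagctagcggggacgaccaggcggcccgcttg
Csf1 upstream LPS peak: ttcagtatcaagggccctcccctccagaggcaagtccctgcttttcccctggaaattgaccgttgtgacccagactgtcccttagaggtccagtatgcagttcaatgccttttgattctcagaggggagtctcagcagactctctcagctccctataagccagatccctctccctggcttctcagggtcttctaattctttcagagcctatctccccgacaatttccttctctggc

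The promoter held 1 match, to the NF-κB consensus at bases 97 to 106, which occurs in 4.505% of 32851 RefSeq promoters of this length. The upstream peak held none of the 5 motifs. Within the printed promoter Ser5 went from 9 to 16 tags, a ratio of 2.17 (0.902 to 5.56), so most of the tags gained in the TSS window lay downstream of the printed stretch, in exon 1.

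**Figure D2:**
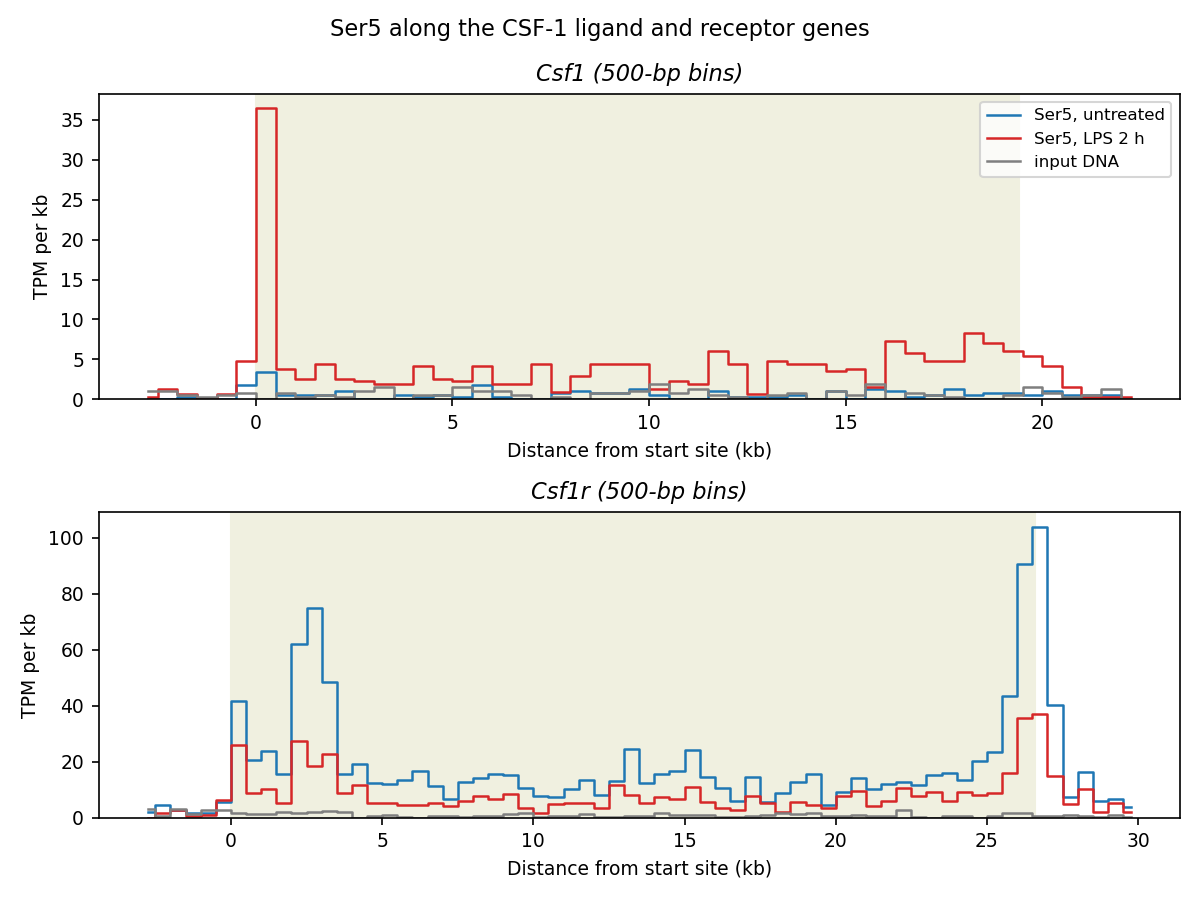
TPM per kb in bins of 500 bp along Csf1 (top) and Csf1r (bottom) against distance from the start site in kb, with the gene shaded and 1 line per library. Csf1 after LPS peaked at 36.5 in the bin after the start site and stayed above the untreated line through most of the gene. Csf1r was lower after LPS at both of its high regions, with 104 against 37.1 in the bin at the gene end, where Hmgxb3 overlaps.

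Csf3, on the plus strand at chr11:98562577-98564943, went from 22 to 38 tags over its body with 11 in the input, or from 1.22 to 2.57 TPM per kb, a ratio of 2.11 (1.21 to 3.74). The TSS window went from 5 tags, fewer than the 14 of the input, to 26 tags, a ratio of 6.34 (2.39 to 21.1), rank 107 of 12535 genes by ratio. Downstream of it the gene held 19 and then 25 tags, a ratio of 1.60 (0.848 to 3.08), an interval that overlapped that of the TSS.

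From 1 kb after the TSS the 19 untreated tags of Csf3 stood beside 8 of the input, a ratio of 2.35 whose interval of 0.982 to 6.20 included equality. Med24, which encodes a Mediator subunit and runs toward Csf3, ends 962 bp beyond the end of Csf3, and the stretch between both gene ends went from 11 to 19 tags, the same ratio of 2.11 (0.952 to 4.90). No peak was called at the Csf3 TSS in either list. After LPS 1 peak of 136 bp was called in exon 5, with a score of 75.66 and 6 untreated, 8 LPS and 0 input tags. Upstream both lists held peaks, centred at -4510 bp from the TSS after LPS, with 50 untreated and 46 LPS tags within the 936 bp of the LPS peak. These peaks lie just beyond the end of Psmd3, which runs on the same strand and ends 5284 bp before Csf3. Their tags therefore cannot be assigned to Csf3. The call at Csf3 over the gene body was lost with identical tags counted once (ratio 1.87), with tags moved 75 bp downstream (1.85) or without the first kb (1.60).

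Csf2, on the minus strand at chr11:54060773-54063169, held 4 untreated, 11 LPS and 9 input tags over its body, and 4, 7 and 12 tags within 1 kb of its TSS. The body ratio of 3.35 passed the rule of size, but its interval of 0.993 to 14.4 included equality, and the LPS density of 0.734 TPM per kb was 1.47 times the input. The surroundings of Csf2 behaved alike, with 10 and 18 tags in the 5 kb after the gene and 6 and 11 tags in the 5 kb before the TSS window. No Ser5 peak was called at Csf2 or within 50 kb of it in either list. Ser5 above input at Csf2 was therefore not detectable at this depth with scaling to all tags, while with scaling to tags outside peaks the LPS body was 3.03 times the input (1.14 to 8.28). Csf2 shares its locus with Gm12223, a transcript on the opposite strand, and ChIP-Seq tags cannot be given to a strand of transcription. Il3, the neighbour 15636 bp away that encodes interleukin-3, held 4 and 2 tags.

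**Figure D3:**
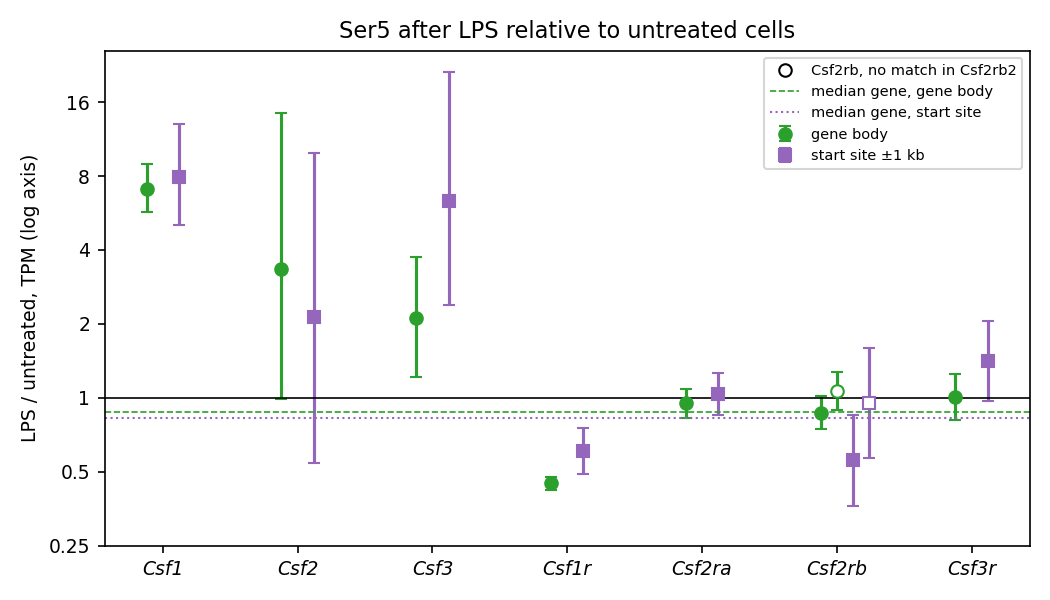
Ratio of TPM after LPS to untreated on a log axis for the gene body (circles) and the start site (squares) of each gene, with 95% intervals for counting error. Csf1 sits near 7 to 8 and Csf1r below 1 in both regions, the wide bars of Csf2 include 1, and open symbols give Csf2rb without tags that have a match in Csf2rb2.

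Csf1r, on the plus strand at chr18:61265226-61291803, was among the most heavily occupied genes of the untreated cells by density over the gene body. Its body held 3883 untreated, 1431 LPS and 199 input tags, or 19.2, 8.61 and 0.994 TPM per kb, ranks 276 and then 841 of all genes. The ratio of 0.449 (0.422 to 0.477) passed the rule downward, and the LPS library was still 8.67 times the input. Of the 8 macrophage genes 3 passed the rule downward over the gene body, Cd68 at 0.263, Itgam at 0.229 and Lyz2 at 0.405. Emr1 at 3.01 and Cd14 at 3.18 passed it upward and 3 passed in neither direction. Among all genes 11.3% passed it downward and 5.83% upward. The part of these differences in the result at Csf1r was not tested. The TSS window went from 265 to 132 tags, a ratio of 0.607 (0.489 to 0.751) that did not pass the rule. By density in this window Csf1r held ranks 2798 and then 4778 of all genes.

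Ser5 along Csf1r was concentrated in 2 places besides the TSS. Intron 1, of 3617 bp, which is known to hold an enhancer used in macrophages, held 1016 untreated and 331 LPS tags, a ratio of 0.397 (0.350 to 0.450). The last exon, exon 21 of 1846 bp, held 703 untreated and 221 LPS tags, a ratio of 0.383 (0.328 to 0.446). Of these, 520 and 158 lay in the 871 bp that overlap with the gene Hmgxb3 and cannot be given to either gene. The introns in between were less dense. Intron 10, the longest, had a ratio of 0.455 (0.382 to 0.539), while intron 9 at 0.619 (0.454 to 0.836) and intron 14 at 0.636 (0.491 to 0.821) had intervals above those of intron 1 and exon 21. The density of the TSS window relative to the rest of the gene was 0.929 (0.817 to 1.05) in untreated cells and 1.28 (1.06 to 1.53) after LPS. These values are not corrected for input, which held 2.12 TPM per kb in the TSS window and 0.971 in the rest. Relative to input the TSS window stood at 8.19 and the rest at 19.3 in untreated cells, and at 4.97 and 8.52 after LPS.

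The 5 kb after the end of Csf1r held 665 untreated and 238 LPS tags, at 17.5 and 7.62 TPM per kb about as dense as the gene, and with a ratio of 0.436 (0.375 to 0.507) close to it. The end of Csf1r overlaps by 871 bp with Hmgxb3, which runs the other way, so the 520 and 158 tags of the overlap cannot be given to either gene. The 5 kb after Csf1r lies within Hmgxb3 too, so its 665 and 238 tags have the same limit. The part of Hmgxb3 beyond these stretches differed little. It held 339 and 242 tags between 5 kb after Csf1r and 1 kb before its own TSS (ratio 0.870, 0.735 to 1.03). At that TSS it held 353 and 262 tags (ratio 0.905, 0.768 to 1.06). Without the overlap the ratio of Csf1r was 0.461 (0.432 to 0.492).

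Peaks covered 98.7% of Csf1r in untreated cells, as 6 peaks of which the longest spanned 10380 bp, and 84.2% after LPS, as 27 peaks. The LPS peak with the highest score, 2983.30, lay over the gene end, reached into Hmgxb3 and held 1113 untreated and 351 LPS tags. Upstream of the gene a peak centred at -6357 bp from the TSS in the untreated list was in both lists, with 24 untreated and 23 LPS tags in the untreated peak. A peak at -4102 bp from the TSS was in the untreated list alone, with 21 and 6 tags.

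Csf2ra, on the minus strand at chr19:61300305-61304321, was close to Csf1r in untreated density, and the intervals of their ratios did not overlap. Its body held 475 untreated, 370 LPS and 36 input tags, or 15.5, 14.7 and 1.19 TPM per kb, ranks 388 and 410 of all genes. The ratio was 0.949 (0.826 to 1.09) over the body and 1.04 (0.854 to 1.26) at the TSS, where 234 and 199 tags stood. The densest bin of 200 bp lay 600 to 800 bp after the TSS, in intron 1, at 53.8 and 54.4 TPM per kb. Intron 1 as a whole held 199 and 182 tags.

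At the other end of Csf2ra the libraries parted: exon 12, the last, went from 43 to 19 tags (ratio 0.539, 0.296 to 0.944) and the 5 kb after the gene from 64 to 27 (0.514, 0.315 to 0.818). A peak upstream, centred at -16456 bp from the TSS in the untreated list, was in both lists, with 22 untreated and 21 LPS tags in the untreated peak. The promoter is shown as that of the receptor gene with the highest Ser5 density after LPS (RefSeq, GRCm38.p6, placed on mm9 at chr19:61304272-61304571, minus strand), with capitals as above.
Csf2ra promoter: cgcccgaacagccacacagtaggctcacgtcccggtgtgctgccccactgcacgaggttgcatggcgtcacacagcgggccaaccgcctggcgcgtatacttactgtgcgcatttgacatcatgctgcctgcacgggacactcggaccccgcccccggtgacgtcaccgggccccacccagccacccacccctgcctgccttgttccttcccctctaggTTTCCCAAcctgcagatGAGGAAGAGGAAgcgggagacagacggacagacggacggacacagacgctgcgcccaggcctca

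It held 2 adjoining GAGGAA matches at bases 237 to 248, just before the RefSeq start, and 1 match to TTNNGNAA at bases 220 to 227, motifs present in 28.3% and 40.7% of RefSeq promoters. Ser5 in this stretch was 32 tags untreated, 22 after LPS and 7 in the input.

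Csf2rb, on the plus strand at chr15:78156420-78184277, held 396 untreated, 283 LPS and 107 input tags over its body, or 1.87, 1.63 and 0.510 TPM per kb, and the ratio was 0.871 (0.745 to 1.02). The density of the beta chain gene was thus below that of its partner Csf2ra in both conditions. Relative to input it was 3.66 times against 13.0 times in untreated cells and 3.19 against 12.4 after LPS. Of the 30-base sequences 25.5% in the Csf2rb body and 0.921% in the Csf2ra body occur elsewhere in the genome, and the densities are not corrected for this. At the TSS 74 and 34 tags gave a ratio of 0.560 (0.362 to 0.851), whose interval lies below 1.

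That TSS difference did not hold once the paralog was taken into account. Csf2rb and Csf2rb2 lie 20368 bp apart and share long stretches. Over the body of Csf2rb 50.7% of 30-base sequences, the length of the LPS tags, had a match with at most 2 mismatches in Csf2rb2, against 38.5% of 45-base sequences, the length of the untreated tags, and within 1 kb of the TSS the shares were 40.2% and 23.4%. Only tags with a unique place had been kept. Counting in both libraries only tags whose first 30 bases have no such match left 37 and 29 tags at the TSS, a ratio of 0.955 (0.567 to 1.60), and 280 and 245 over the body, a ratio of 1.07 (0.895 to 1.27). Csf2rb2 moved likewise, from 0.548 (0.296 to 0.979) to 1.30 (0.602 to 2.82) at its TSS and from 0.766 (0.580 to 1.01) to 1.02 (0.739 to 1.41) over its body. No difference in Ser5 at the beta chain genes was thus detectable at this depth in sequence that both libraries could map. Peaks at Csf2rb numbered 14 in the untreated and 7 in the LPS list, and the count has the same limit.

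Csf3r, on the plus strand at chr4:125701794-125722219, held 190 untreated, 157 LPS and 83 input tags, or 1.22, 1.23 and 0.539 TPM per kb, a ratio of 1.01 (0.810 to 1.25). Of its 30-base sequences 17.3% occur elsewhere in the genome, and leaving those tags out gave 1.02. At the TSS 56 and 65 tags gave a ratio of 1.41 (0.974 to 2.06). The TSS was 3.91 times as dense as the rest of the gene in untreated cells (2.82 to 5.37) and 6.31 times after LPS (4.54 to 8.71). These values are not corrected for input, which held 1.19 TPM per kb at the TSS and 0.478 in the rest. Relative to input the TSS stood at 3.08 (1.78 to 5.56) and the rest at 1.96 (1.46 to 2.66) in untreated cells. After LPS they stood at 4.35 (2.55 to 7.80) and 1.72 (1.26 to 2.37). Csf3r is best known from neutrophils, and of the 5 neutrophil genes Ly6g, Mpo, Elane and Ngp lay at 0.0641 to 0.523 TPM per kb in untreated cells and S100a8 at 2.18.

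Peaks at Csf3r were confined to the 5′ end, with 1 of 574 bp in untreated cells and 2 after LPS. The second LPS peak, in intron 1, overlaps the untreated peak in part and held 5 untreated, 19 LPS and 3 input tags, a ratio of 4.63 (1.67 to 15.9), given as a description since the peak was picked from the LPS list. Further upstream, at -20186 bp from the TSS, the LPS list alone had a peak with 2 untreated and 11 LPS tags. The 5 kb after Csf3r holds the promoter of Mrps15, a mitochondrial ribosomal protein gene that starts 1950 bp beyond it, and was not read as part of Csf3r. The promoter (RefSeq, GRCm38.p6, on mm9 at chr4:125701653-125701952, plus strand) and the second LPS peak (mm9, chr4:125702205-125702485, plus strand) are shown because the counts on them differ, with 19 and 19 Ser5 tags in the promoter.
Csf3r promoter: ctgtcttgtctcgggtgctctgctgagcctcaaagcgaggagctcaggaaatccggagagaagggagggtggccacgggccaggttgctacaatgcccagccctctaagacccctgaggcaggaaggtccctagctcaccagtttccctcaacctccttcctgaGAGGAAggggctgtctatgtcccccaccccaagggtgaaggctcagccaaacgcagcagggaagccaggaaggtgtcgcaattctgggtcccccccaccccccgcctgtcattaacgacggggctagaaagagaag
Csf3r intron 1 LPS peak: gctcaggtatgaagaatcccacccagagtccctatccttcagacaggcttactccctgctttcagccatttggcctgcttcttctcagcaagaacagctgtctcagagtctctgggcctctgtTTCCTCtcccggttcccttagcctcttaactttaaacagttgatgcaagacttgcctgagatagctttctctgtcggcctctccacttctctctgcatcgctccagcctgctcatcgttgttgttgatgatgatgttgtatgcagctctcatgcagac

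Each held 1 match to GAGGAA, in the peak on the opposite strand. The motif occurs in 28.3% of RefSeq promoters and in 28.1% of the central windows of this length of the 49371 LPS peaks. The RefSeq promoter table held 4 of the 7 members, not Csf1r, Csf2rb and Csf3.

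**Figure D4:**
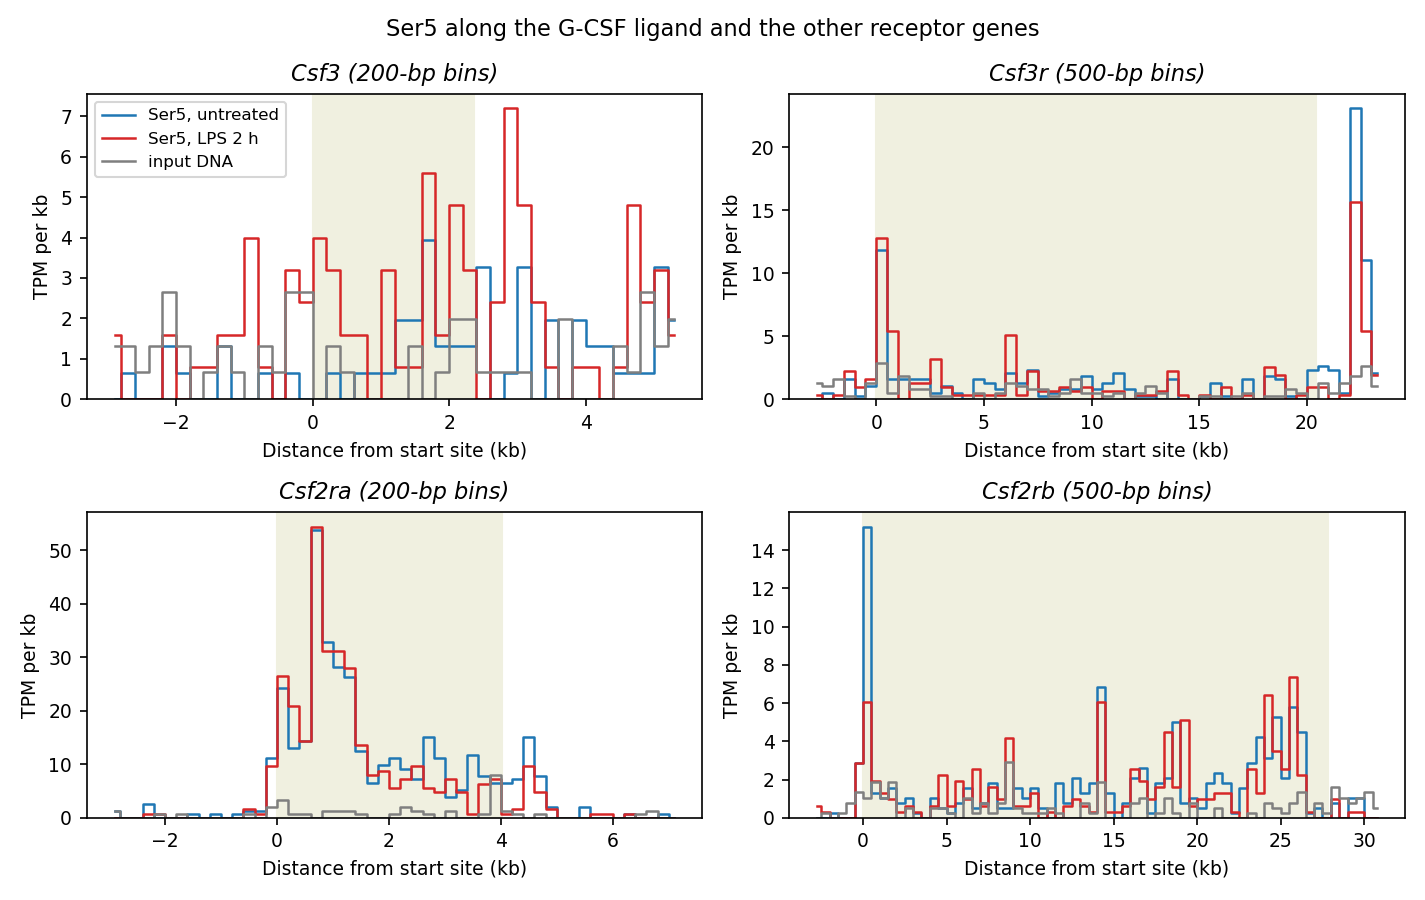
TPM per kb along Csf3 and Csf2ra (bins of 200 bp) and Csf3r and Csf2rb (bins of 500 bp) against distance from the start site in kb, with the gene shaded and 1 line per library. Untreated and LPS lines lie together over the 5′ part of Csf2ra, at 53.8 and 54.4 in its highest bin, and at the start of Csf3r, whose neighbour Mrps15 gives the signal beyond the gene.

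The nearest coding genes did not share the calls of Csf1 and Csf1r. Over gene bodies Ahcyl1, 44488 bp downstream of Csf1, had a ratio of 1.26 (1.05 to 1.496), and Eps8l3 on the other side had 19 and 8 tags. Pdgfrb, which encodes a related receptor kinase and ends 20511 bp before Csf1r, had 1.04 (0.818 to 1.32), with 156 and 133 tags that do not exceed the 172 of the input. On either side of Csf3, Psmd3 had 0.747 (0.619 to 0.901) and Med24 0.773 (0.650 to 0.918).

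By density in both Ser5 libraries, the genes nearest to a member on the log2 scale were Lox and Gm15821 for Csf1, Nr3c1 and Stk40 for Csf3, Fos and Hspb6 for Csf1r, the ribosomal genes Fau and Rpl9 for Csf2ra, Ing5 and Dnajc16 for Csf2rb, and Rps6kb1 and Cnot1 for Csf3r. The match was closest for Csf3r, at a distance of 0.02 from Rps6kb1, and loosest for Csf1, at 0.19 from Lox, over 2 libraries. Csf2, with 4 untreated tags, was not matched.

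Of 39 further genes of these pathways, ligands and receptors of the same families, adaptors, kinases, STAT factors and targets, 37 had at least 10 tags over the gene body. Of these 5 were at least 2 times higher after LPS, 4 at least 2 times lower and 28 neither, beside 5.83% and 11.3% of all genes, and the median ratio was 0.921, beside 0.874 over all genes. At the TSS 34 could be read, with 5 higher and 4 lower, beside 5.58% and 14.1% of all genes.

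The genes that were higher included 3 inhibitors of cytokine receptor signalling. Socs3, which restrains the G-CSF receptor, went from 244 to 2129 tags, a ratio of 10.6 (9.31 to 12.2). Cish went from 16 to 116 tags, a ratio of 8.84 (5.22 to 15.97), and Socs1 from 156 to 525, a ratio of 4.10 (3.42 to 4.94). Jak2, the kinase bound by the beta chain, went from 304 to 1288 tags, a ratio of 5.16 (4.55 to 5.87), with 345 in the input. The survival kinase gene Pim1 had a ratio of 4.93 (4.46 to 5.44). All 5 passed the rule at the TSS as well.

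The 4 that were lower are a share near that of all genes and are given as single values. Inpp5d, the lipid phosphatase SHIP1, went from 2398 to 225 tags, a ratio of 0.114 (0.0993 to 0.131). Its input held 644 tags, so by total tags the LPS library was 0.421 times the input (0.360 to 0.491). Pik3cd, a PI3-kinase catalytic subunit, had a ratio of 0.429 (0.385 to 0.478), the kinase gene Fes of 0.449 (0.399 to 0.503) and Tyrobp, the adaptor DAP12, of 0.466 (0.379 to 0.570). At the TSS Inpp5d and Pik3cd passed the rule again, while Fes at 0.541 and Tyrobp at 0.525 did not. The other genes that passed it downward there were Il34 at 0.406 and Pik3cg at 0.496. The Il34 value rested on 12 and 4 tags against 15 in the input, and its interval of 0.0955 to 1.34 included equality. Among the genes that passed in neither direction, Stat5a (0.765, 0.642 to 0.910), Stat5b (0.860, 0.770 to 0.961) and Stat3 (1.29, 1.16 to 1.44) carry the signals of these receptors to the nucleus. Over the gene body Il34, the other ligand of the CSF-1 receptor, held 74 and 80 tags against 175 in the input, and Il5 held 2 and 1.

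**Figure D5:**
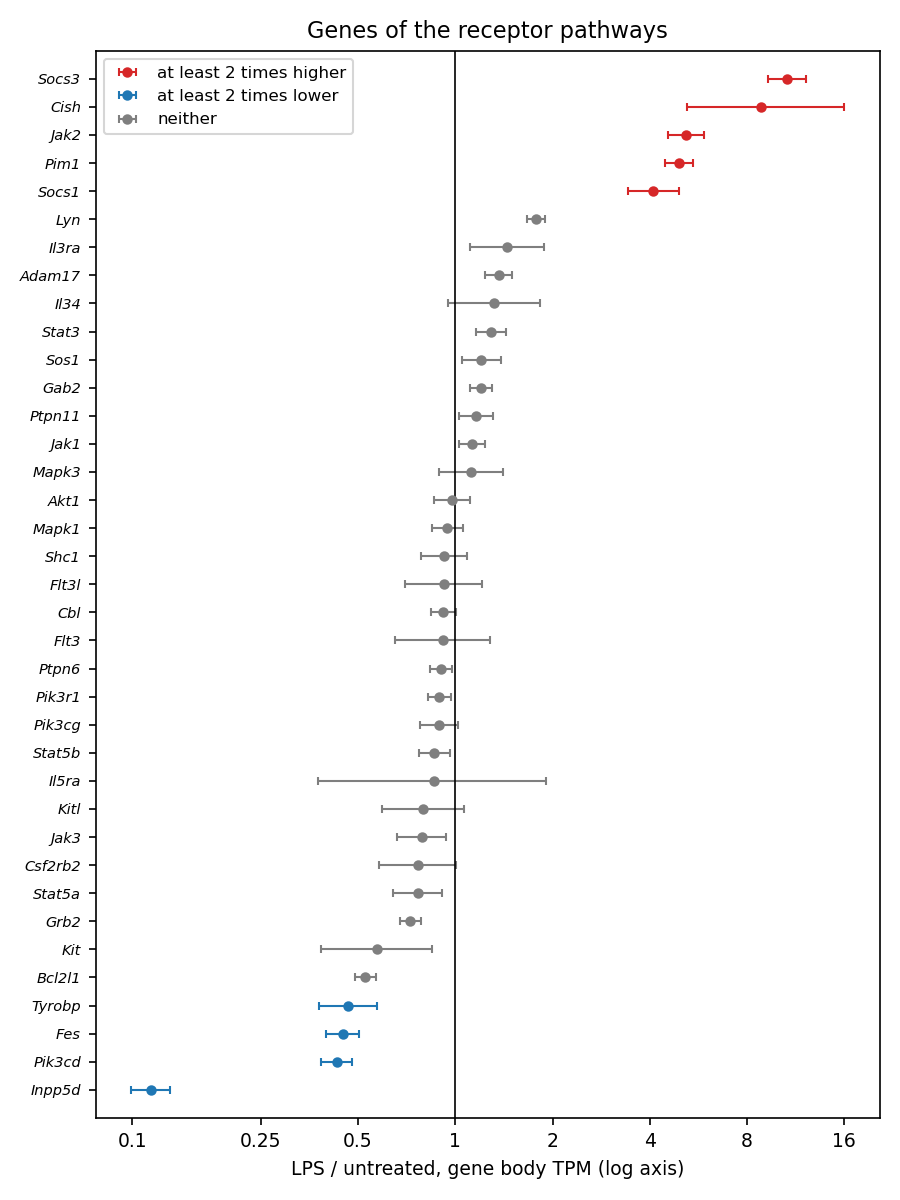
Ratio of gene body TPM after LPS to untreated on a log axis for the 37 pathway genes with at least 10 tags, ordered by ratio, with 95% intervals for counting error. Red points (5 genes, from Socs1 at 4.10 to Socs3 at 10.6) and blue points (4 genes, down to Inpp5d at 0.114) passed the rule of size.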

How the data were processed

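Aligned tags and peak lists of 2 Ser5 Pol_II ChIP-Seq libraries and aligned tags of 1 input library were used. The authors trimmed the 76-base Ser5 reads and aligned them to mm9 with Bowtie (unique matches, at most 2 mismatches, version not given in the sources used here). They called peaks on each Ser5 library against input with MACS at p 1e-05, without pooling. The deposited peak score is minus 10 times log10 of the p-value. The tag files deposited by the authors list 1 position per tag, duplicates kept, and from these the tag counts and the TPM signal per kb were computed here.

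Tags were assigned by their 5′ end, with positions as listed (whether they start at 0 or 1 could not be decided, a shift of 1 base), to GENCODE M1 genes, to windows of 1 kb on each side of the TSS and to exons and introns of the longest coding mRNA. TPM is relative to the library's tags on chromosomes 1 to 19 and X. With 1 library per condition, differences were described by a rule of size, at least 2 times where the Ser5 tags summed to 10 or more, with 0 tags set to 0.5. Intervals were exact Poisson, and for ratios exact and conditional on the sum, with a floor of 3 tags for a count of 0. Genes named are the members, Csf2rb2, their neighbours and the 2 genes nearest in density, pathway genes past the rule, and marker genes. Other genes named were chosen after their values were seen. From the pathway list 1 gene is not reported here. Spi1 was found under its older symbol Sfpi1. The members and lists were chosen with earlier results of these data known. Alternatives were duplicates removed, shifted tags, other scaling, other windows, input subtraction, unique 30-base sequences, stricter peaks and, added after seeing the data, leaving out paralog matches and the Hmgxb3 overlap. Python 3.11.15, numpy 2.4.6, pandas 2.3.3, scipy 1.17.1 and matplotlib 3.10.9 were used, and counting and intervals were tested on simulated data.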

Additional observations from a re-analysis of the deposited data

How the results depend on the processing

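No paired analysis was possible because each condition has 1 library. Csf1 stayed at least 6.52 times higher and Csf1r below 0.5 over the gene body under every alternative. For Csf1r the body ratio was 0.480 with 1 tag per position, 0.484 with scaling to tags outside peaks and 0.419 with input subtracted, outside its counting interval. With input subtracted the Csf1 body ratio became 294, since its untreated level is close to the input by total tags, which makes that value uninterpretable. For Csf2rb, leaving out tags with a match in the paralog moved the ratio to 1.07 over the body and 0.955 at the TSS. The number of members higher over the gene body fell from 3 to 1 without the first kb, as Csf2 then had too few tags and Csf3 dropped under the rule. At the TSS the number higher was 1 with input subtracted, since Csf2 and Csf3 did not exceed input in untreated cells, and the number lower was 1 instead of 0 with windows of 500 bp and with input subtracted, in both cases Csf2rb, which has the paralog limit. Members with an untreated TSS peak numbered 3 instead of 5 when 50% of the peak had to lie in the window. The other 122 values answering a comparison stayed within their interval or within 1.5 times. Of the single Ser5-to-input ratios of the members 18 moved upward outside their interval with scaling to tags outside peaks, while the other 10 and all 28 with 1 tag per position stayed within it. Over untreated gene bodies this scaling took Csf1 from 1.02 to 1.95, Csf1r from 19.3 to 36.9, Csf2ra from 13.05 to 24.96, Csf2rb from 3.66 to 7.00 and Csf3r from 2.26 to 4.33. The TSS ratio of Csf3 ran from 2.49 with windows of 2 kb to 11.0 with 500 bp and that of Csf2 from 1.22 with 500 bp to 3.90 with 2 kb, and that of Csf1 was 11.9 with input subtracted. Depth limits Csf2 and Csf3 most, with 11 and 38 LPS tags over the gene body.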
